A study of Mus musculus with 48 samples.

Results

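The protein disulfide isomerases of the endoplasmic reticulum (ER) were described here in mouse liver and colon, together with *Manf*, a small secreted ER protein that is made with them under ER stress. The rule named 7 genes, *P4hb*, *Pdia3*, *Pdia4*, *Pdia5*, *Pdia6*, *Txndc5* and *Manf*, and took every probe of the array that maps to them. No probe of the array mapped to *Pdia3*, so it was not analysed here. The other 6 genes had 9 of the 41174 probes: *Pdia6* had 3, *Txndc5* had 2 and each of the others had 1. The genes were chosen from liver differences between the HH and LH mice, so that every value that sets those mice against each other is given as a description and carries no test.

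The mice were C57BL/6 on high-fat diets that differed in selenium and folate. In a group name the dam's diet, fed from before mating until the end of lactation, comes first, and the diet of the offspring from weaning to 12 weeks of age comes last. The H diet held 0.44 mg/kg selenium and 2.4 mg/kg folate, and the L diet 0.08 mg/kg and 0.4 mg/kg. The 4 groups were therefore HH (high for dam and offspring), HL (high for the dam, low for the offspring), LH (low for the dam, high for the offspring) and LL (low for dam and offspring). Offspring were male by the study's methods, but *Xist*, a transcript of female cells, was high in 8 of the mice. Of these, 2 were sampled for liver (HL 2 and LL 6) and 6 for colon (HH 1, HH 5, HL 5, LL 1, LL 3 and LL 5). Male cells make *Eif2s3y*, whose log2 signal was low in the HL 2 liver (6.29) and the LL 1, LL 3 and HL 5 colons (7.37, 6.38 and 6.3). In the LL 6 liver (10.63) and the HH 1, HH 5 and LL 5 colons (10.7, 10.09 and 11.17) both transcripts were high. The sex of these mice was not tested further. Each array held RNA of a mouse in the Cy3 channel and a common reference RNA in Cy5, and a value below is the log2 ratio of mouse over reference. Of the 24 liver arrays, 2 came from the same HH animal and were averaged, which left 5 HH and 6 mice of each of the other groups. The colon had 6 mice in each group.

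Protein disulfide isomerases form, reshuffle and break the disulfide bonds of proteins that fold in the ER. Ero1 enzymes and peroxidases re-oxidise them, and some of them work in pairs with lectin chaperones or as a subunit of larger enzymes. The hepatocyte secretes most plasma proteins, many of which hold disulfide bonds, and the goblet and plasma cells of the colon secrete disulfide-rich mucins and antibodies. When unfolded proteins build up, the unfolded protein response (UPR) raises these genes through transcription factors that bind ER stress elements in their promoters.

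The promoters are shown because they hold, in differing degree, the letters through which UPR factors are known to act. The RefSeq table (GRCm38.p6) held 8 promoters of 6 of the genes, each a window around a start site, and *Manf* was not among them. The ER stress element was searched on both strands as CCAAT, any 9 bases and CCACG, and capitals mark the letters of the element that were present. Each stretch is written in the direction of its gene. The chromosome coordinates of a match are those of its whole printed stretch, and base numbers from the start site are those of the element alone.

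Pdia6: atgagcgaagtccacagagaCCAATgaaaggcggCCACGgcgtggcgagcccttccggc
Pdia4: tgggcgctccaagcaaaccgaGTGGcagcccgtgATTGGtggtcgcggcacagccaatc
Pdia3: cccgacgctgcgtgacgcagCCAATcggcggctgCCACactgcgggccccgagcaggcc
P4hb: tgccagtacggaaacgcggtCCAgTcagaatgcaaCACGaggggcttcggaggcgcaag
Pdia5: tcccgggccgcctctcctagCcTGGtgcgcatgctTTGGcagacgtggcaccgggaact

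*Pdia6* held the whole element within chr12:17266471-17266529 on the + strand, from base -98 to base -80 of the start site. Only 39 of the 32851 promoters of the table, 0.119%, held it in full. *Pdia4* held it with 1 letter off within chr6:47813582-47813640 (gene on the - strand), read on the strand opposite to the gene from base -108 to base -90. *Pdia3* held it with 1 letter off within chr2:121413853-121413911 (+ strand). Up to 1 letter off was found in 1.5% of all promoters. The nearest matches of *P4hb* (chr11:120573348-120573406, - strand) and *Pdia5* (chr16:35490865-35490923, - strand, read on the opposite strand) were 2 letters off, which 17.9% of all promoters reach, and are shown only for contrast. *Txndc5* has 3 promoters in the table, with nearest matches 2 to 4 letters off. The most downstream of them held the UPR element TGACGTGG, which 0.676% of all promoters hold. It lay within chr13:38528025-38528072 (gene on the - strand, bases -138 to -131).

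Txndc5: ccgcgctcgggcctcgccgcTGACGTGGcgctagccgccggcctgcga

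For comparison, 4 of the 9 promoters of ER chaperone genes in the table held the full ER stress element. A match is a run of letters and not a measured binding site.

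In the liver all 6 measured genes had their lowest group mean in HH and their highest in LH. The median difference over the 6 genes was 0.55 on the log2 scale (range 0.35 to 1.02), where the median over all 41172 probes compared was -0.01. Since this contrast chose the genes, the agreement in direction is a property of the choice. Of all probes, 12% (4934) had an unadjusted p under 0.05 in limma and 0% passed the thresholds of a 1.5-fold difference and a false discovery rate of 0.05, so no gene of the array was called in this contrast. The study itself, at the same thresholds and with 6 animals counted in each group, reported differentially expressed probes between these groups. Why the counts differ was not tested.

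*Pdia4* (chr6:47796141-47813512), a large isomerase found in chaperone complexes with the ER Hsp70 protein, differed most. Its log2 ratios in the HH mice were 0.06, -0.20, -0.20, 0.35 and 0.53, and in the LH mice 1.52, 0.92, 1.68, 1.0, 0.72 and 0.94. All LH mice lay above all HH mice. The difference was 1.02 ± 0.32 (SE, 95% interval 0.35 to 1.7), a fold of 2.03. Groups that did not overlap were seen for 2 of the 6 genes by their brightest probe (3 of the 9 probes), and for 1.54% of all probes.

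The other of these genes was *Txndc5* (chr13:38500266-38528824), an isomerase with several thioredoxin domains that is also known as ERp46. Its HH mice read -0.21, 0.22, 0.01, -0.31 and 0.13 and its LH mice 0.47, 0.44, 0.74, 0.36, 0.75 and 0.47. The difference was 0.57 ± 0.17 by the brighter probe and 0.66 ± 0.21 by the dimmer probe. The dimmer probe did not separate the groups.

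*Pdia5* (chr16:35397308-35490919), an isomerase linked to the activation of the UPR sensor Atf6, read 0.15, 0.02, 0.62, -0.01 and 0.11 in the HH mice. In the LH mice it read 0.42, 0.83, 0.85, 0.74, 1.13 and 0.86. The HH mouse at 0.62 is the animal with 2 arrays, and it alone overlapped the LH range. The difference was 0.62 ± 0.18 (95% interval 0.24 to 1.01, 1.54-fold). *Pdia4* and *Pdia5* were the 2 genes past 1.5-fold by their brightest probe, a size that 0.947% of all probes reached upwards.

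*Pdia6* (chr12:17266589-17284785), which is known to dampen UPR sensors and to bind the ER Hsp70 protein, had 3 probes that differed by unequal amounts. The brightest probe read -0.50, -0.48, -0.71, -0.68 and -0.25 in the HH mice and -0.39, 0.10, -0.20, 0.29, -0.11 and 0.38 in the LH mice, so that only the lowest LH mouse lay inside the HH range. Its difference was 0.53 ± 0.18. The other probes gave 0.39 ± 0.20 and 1.17 ± 0.27, and the last, A_52_P339495, separated the groups. The probes all carry the same gene name, and which transcripts each reports was not tested.

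*Manf* (chr9:106888753-106891938) read 0.20, 0.03, 0.06, 0.26 and 0.38 in the HH mice and 0.77, 0.67, 0.76, 0.38, 0.44 and 1.07 in the LH mice. The highest HH mouse and the lowest LH mouse met at 0.38, and the difference was 0.49 ± 0.20. *P4hb* (chr11:120560298-120573253), the founding protein disulfide isomerase and also a subunit of prolyl hydroxylase and of the microsomal triglyceride transfer protein, read -0.15, 0.07, 0.59, 0.03 and 0.59 in the HH mice. In the LH mice it read 0.14, 0.72, 0.22, 0.78, 0.87 and 0.71. Its groups overlapped, and its difference of 0.35 ± 0.22 (95% interval -0.10 to 0.80) was the smallest of the 6.

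**Figure D1:**
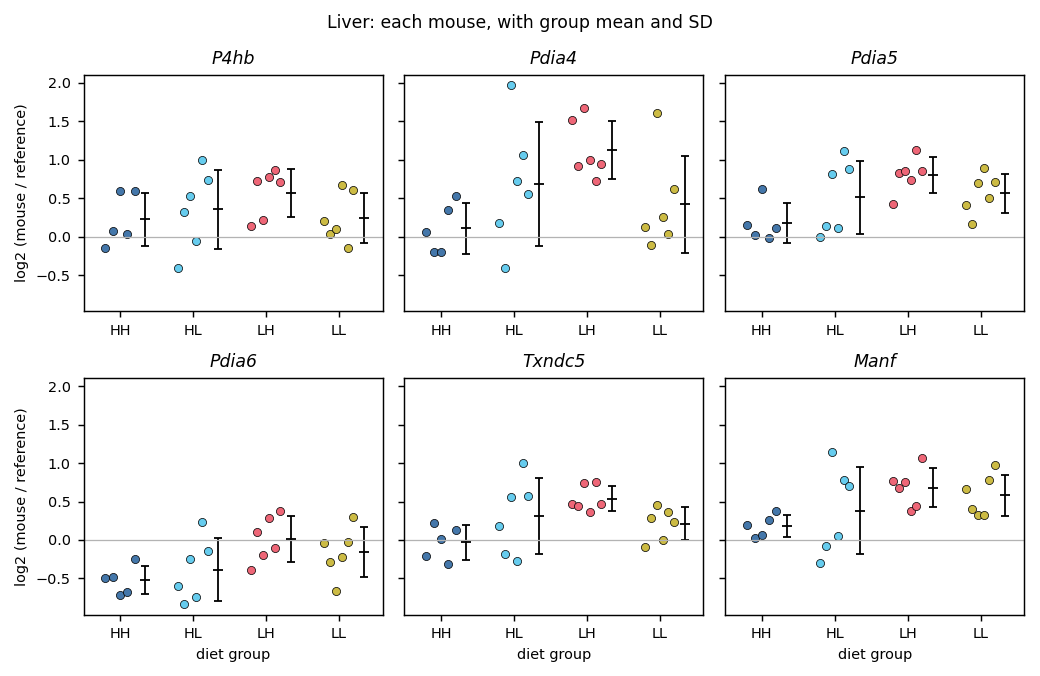
Log2 ratio of mouse over reference for the brightest probe of each of the 6 genes in the liver, by diet group (5 HH mice and 6 mice in each other group; points are mice, bars are the group mean with its SD). For every gene the HH mean is the lowest and the LH mean the highest, and the HL mice spread most for *Pdia4*, from -0.41 to 1.97.

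The HL and LL mice played no part in the choice of the genes. In the liver the order of the group means was HH, LL, HL, LH for *Pdia4*, *Txndc5* and *P4hb*, and HH, HL, LL, LH for *Pdia5*, *Pdia6* and *Manf*. The LL mice lay between HH and LH with medians over the genes of 0.34 above HH (range 0.02 to 0.39) and 0.28 below LH. On each of the 6 slides, which held an array of every group, the median of the genes was higher in LL than in HH (0.12 to 0.52) and lower in LL than in LH (-0.52 to -0.06). The HH arrays of slides 3 and 6 are of the same animal, and on the other 4 slides LL minus HH ran from 0.12 to 0.39. Both differences use HH or LH mice and are descriptions.

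The liver comparison that the choice of genes did not touch was HL *vs.* LL, which asks whether the diet of the dam made a difference in offspring fed the L diet. The median difference, LL minus HL, was -0.02 over the 6 genes, from -0.26 ± 0.31 for *Pdia4* to 0.23 ± 0.17 for *Pdia6*. Of the 6 genes 3 were higher and 3 lower in LL. None was called, and none had an unadjusted p under 0.05, in limma's test (adjusted p = 1 for each), where 0% of all probes were called and 3.08% had an unadjusted p under 0.05. The intervals were wide: for *Pdia4* from -0.90 to 0.39 and for *Pdia6* from -0.13 to 0.59. For *Manf* the interval ran from -0.20 to 0.59. The LH minus HH differences chose the genes and carry their own error, so they are no yardstick for these intervals.

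The HL mice had the widest spread of the 4 groups for each of the 6 genes. For *Pdia4* their SD was 0.81, against 0.33 to 0.63 in the other groups. The HL values of *Pdia4* were 0.18, -0.41, 1.97, 0.73, 1.06 and 0.56, while the LL mice read 0.13, -0.11, 1.61, 0.26, 0.04 and 0.62. The mean of the 6 genes was -0.16, -0.17 and -0.03 in HL 1, 2 and 4, and 0.80, 0.87 and 0.55 in HL 3, 5 and 6. The HH mice ran from -0.07 to 0.25 and the LH mice from 0.49 to 0.74, so that HL 4 lay among the HH mice, HL 1 and 2 below them, HL 6 among the LH mice, and HL 3 and 5 above all of them. The LL mice ran from 0.08 to 0.58. Under 8 ways to process the arrays, among them without the repair of local backgrounds, HL 1, 2 and 4 stayed between -0.26 and 0.08 above the HH mean and HL 3, 5 and 6 between 0.47 and 1.1.

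**Figure D2:**
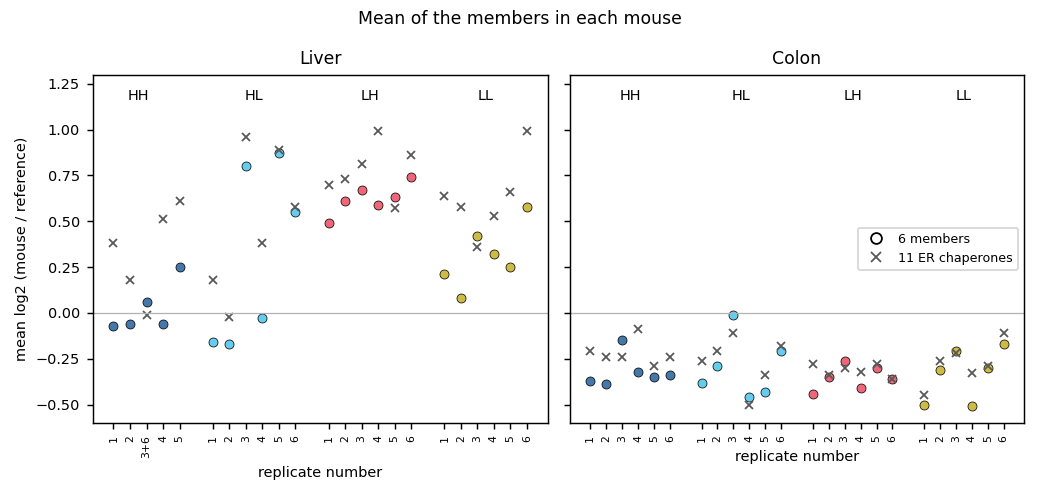
Mean log2 ratio of mouse over reference in each mouse, by diet group and tissue; circles are the mean of the 6 genes (brightest probes) and crosses the mean of 11 ER chaperone genes. The LH liver mice sit between 0.49 and 0.74, all above the HH mice, the HL liver mice fall into a low and a high trio, and the circles of all colon mice lie between -0.51 and -0.01.

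The same HL mice stood high or low in several, but not all, of the genes looked at beside these 6. The mean of 11 ER chaperone genes was 0.96, 0.89 and 0.58 in HL 3, 5 and 6 and 0.18, -0.02 and 0.38 in HL 1, 2 and 4. In the HH mice it ran from -0.01 to 0.61, so that HL 6 lay among them. *Hyou1*, a large ER chaperone of the Hsp70 family, read 2.37, 1.4 and 0.94 in HL 3, 5 and 6 and -0.09, -0.20 and 0.44 in the others. *Hspa5*, *Hsp90b1*, *Calr* and *Xbp1* split these mice in the same way. *Dnajb9* and *Creld2* did not: *Dnajb9* read 1.31 in HL 4 and 0.37 in HL 3, and *Creld2* 1.03 in HL 4 and 0.80 in HL 6. Several facts about single mice moved with this split. HL 1 held pancreatic RNA: its summed Cy3 signal of 11 acinar markers was 72300, against 2790 to 5670 in the livers of the other diet groups and an HL median of 3520. HL 2 was high in *Xist*. The split was also a split by slide, since mice of the same number shared a slide. On slides 3, 5 and 6 the LH mice read 0.67, 0.63 and 0.74 and on slides 1, 2 and 4 they read 0.49, 0.61 and 0.59, and the LL mice read 0.42, 0.25 and 0.58 against 0.21, 0.08 and 0.32. The slides took 35.9% (*Manf*) to 60.3% (*Txndc5*) of the within-group spread in the liver, and 59.7% for *Pdia4*, where they hold 26.3% of the degrees of freedom. *Pdia4* on slide 3 was the highest of its group in the HL, LH and LL mice (1.97, 1.68 and 1.61). The part of these facts in the split was not tested.

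Among the lists of related genes, those of chaperones, partners and UPR factors had median liver differences between LH and HH above that of all probes. Of 11 ER chaperone genes 10 were higher in LH, with a median of 0.44, and *Hyou1* (1.36 ± 0.37), *Sdf2l1* (0.89 ± 0.38) and *Creld2* (0.79 ± 0.31) had the largest values. Of 8 binding partners and clients 7 were higher (median 0.17), among them the lectin chaperones *Calr* (0.56 ± 0.17) and *Canx* (0.52 ± 0.14) and *Mttp* (0.56 ± 0.18), whose protein is the partner of P4hb in lipoprotein assembly. Of 12 UPR sensors and factors 10 were higher (median 0.16), with *Xbp1*, the factor that is spliced on ER stress, at 0.84 ± 0.30, *Herpud1* at 0.71 ± 0.26 and *Trib3* at 0.53 ± 0.33.

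The enzymes nearest to the isomerases in chemistry had medians close to that of all probes. Of 11 genes that oxidise or reduce ER thiols 6 were higher in LH (median 0.02), with *Ero1b*, an oxidase of the isomerases, at 0.53 ± 0.24 and the ER peroxidase *Gpx7* at -0.29 ± 0.17. Of 17 other members of the isomerase family 8 were higher (median -0.01), with *Txndc15* at 0.31 ± 0.12 and the membrane-bound *Tmx3* at -0.27 ± 0.11. Over all probes 47.3% were higher in LH. None of the genes on these lists was called in any of the diet comparisons of either tissue, where 0% of all probes were called in each. In HL *vs.* LL the medians were 0.09 for the chaperones and -0.05 for the UPR list.

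**Figure D3:**
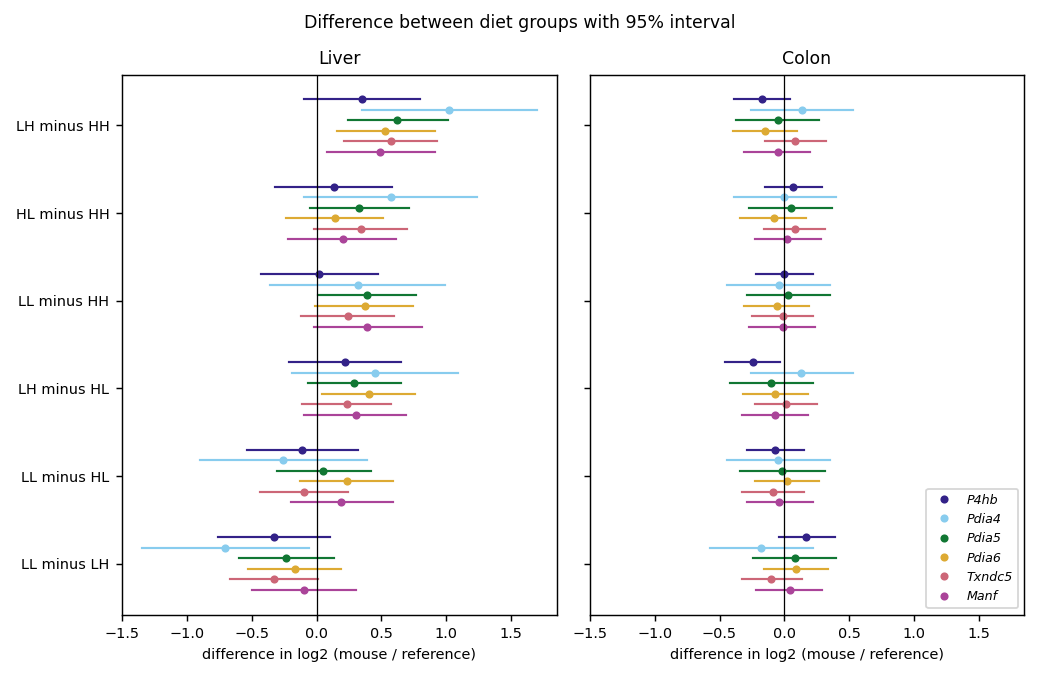
Differences in log2 ratio between diet groups for the brightest probe of each of the 6 genes, with 95% intervals, in liver and colon. In the liver the LH minus HH differences run from 0.35 to 1.02, and in the colon the same differences run from -0.17 to 0.14.

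Markers of cell types moved in the liver with the same contrast. All 7 hepatocyte markers were higher in LH (median 0.23), and their summed Cy3 signal ran from 594000 to 765000 in HH and from 659000 to 740000 in LH. All 6 markers each of Kupffer cells (median -0.31), of other myeloid cells (-0.31) and of fibroblasts and stellate cells (-0.41) were lower in LH. Their sums in HH and LH were 11300 to 41700 and 9500 to 24200 for Kupffer cells, 5640 to 10200 and 4490 to 7060 for myeloid cells, and 15600 to 44600 and 10100 to 20600 for fibroblasts, with the HH animal that had 2 arrays highest in each. Without this animal the medians were -0.16 for Kupffer cells (5 of 6 lower), -0.05 for myeloid cells (6 of 6 lower) and -0.05 for fibroblasts (4 of 6 lower). Most of the size of the myeloid and fibroblast medians, and part of the Kupffer cell median, rested on it. Single myeloid markers differed by more, with this animal included: *S100a9* by -1.46 ± 0.37 and *S100a8* by -1.29 ± 0.29. *S100a8* read -0.28 to 1.24 in the HH mice and -0.97 to -0.38 in the LH mice, so every HH mouse lay above every LH mouse. Without it the hepatocyte median was 0.30, that of the chaperones 0.35, and that of the 6 measured genes 0.53. All 7 hepatocyte, 6 Kupffer cell and 6 fibroblast markers and 5 of the 6 myeloid markers were detected in the liver (well above background on at least 75% of the arrays). In bulk tissue fewer cells of a type and less RNA per cell cannot be told apart, and the part of these cell types in the differences was not tested.

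Across the 23 liver mice, with group means removed, the correlations of the 15 pairs of genes ran from 0.07 to 0.79 (median Pearson r 0.49). They rested on the HL mice. As these fall into separate clusters, the pairs were taken again over the other 17 mice, where r ran from -0.39 to 0.65 with a median of 0 and 7 of 15 pairs were positive. The highest was *P4hb* with *Pdia5* (r 0.65, Spearman rho 0.58, permutation p = 0.0092), with an adjusted p of 0.14 over the 15 pairs. Over these 17 mice *P4hb* also went with the mean of the hepatocyte markers (r 0.77, permutation p adjusted over 30 relations 0.031, rho 0.72 with 0.052, and r 0.72 without the 2 farthest mice). *Pdia6* went against the Kupffer cell markers (rho -0.75, permutation p adjusted over 30 relations 0.028, r -0.57 with 0.10, and r -0.55 without the 2 farthest mice). Over all 23 mice the relations past an adjusted p of 0.05 by r or rho were the same pairs, *P4hb* with hepatocyte markers (r 0.72, rho 0.74) and *Pdia6* with Kupffer cell markers (r -0.50, rho -0.63), and *Pdia4* with fibroblast markers (r -0.39, rho -0.51). Mice were permuted within diet groups only, so these liver p-values do not allow for the slide. Slides took 43.9% of the within-group spread of *P4hb* and 40.9% for *Pdia6*. No liver p-value was computed with slide means removed.

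Over all 23 mice, the genes whose pattern was most like the mean of the 6 were *Snd1* (Pearson r 0.91), *Rmc1* (0.89), *Pold2* (0.88), *Parp1* (0.84) and *Maged1* (0.84). Of 20494 probes compared 0.2% had r above 0.8, and the 6 genes themselves had 0.72 to 0.88. Mice share slides and diet groups, so these are descriptions.

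In the colon the 6 genes hardly differed between the diets. Median differences over the genes lay between -0.07 and 0.06 in the 6 pairs of groups, and the range over single genes in LH minus HH was -0.17 to 0.14. The choice of genes used no colon value, so limma's tests apply: none of the 9 probes was called in any pair (adjusted p = 1), nor was any probe of the array (0%). At an unadjusted p under 0.05 a single value stood, *P4hb* in LH minus HL at -0.24 ± 0.11 (95% interval -0.46 to -0.03), in a comparison where 2.95% of all probes reached that level. In the other pairs, where none of the 9 probes did, the share of all probes was 3.24% for LH minus HH, 1.46% for HL minus HH, 1.72% for LL minus HH, 1.02% for LL minus HL and 2.81% for LL minus LH.

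The *P4hb* values were -0.77, -0.65, -0.40, -0.38, -0.67 and -0.62 in the HL colons and -1.06, -0.79, -1.02, -0.83, -0.49 and -0.75 in the LH colons. The LH mouse was lower on 5 of 6 slides, and the groups overlapped. *Pdia5* was lower in LH on all 6 slides, with differences from -0.25 to -0.01, at a mean of -0.10 ± 0.04 (SE over the slides). In an exact two-sided sign-flip test over the 6 slides this had p = 0.031, the smallest that 6 slides allow, and an adjusted p of 0.79 over the 36 colon comparisons of the 6 genes. *Pdia4* was the gene with the widest spread between colon mice, from -1.53 to -0.32.

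**Figure D4:**
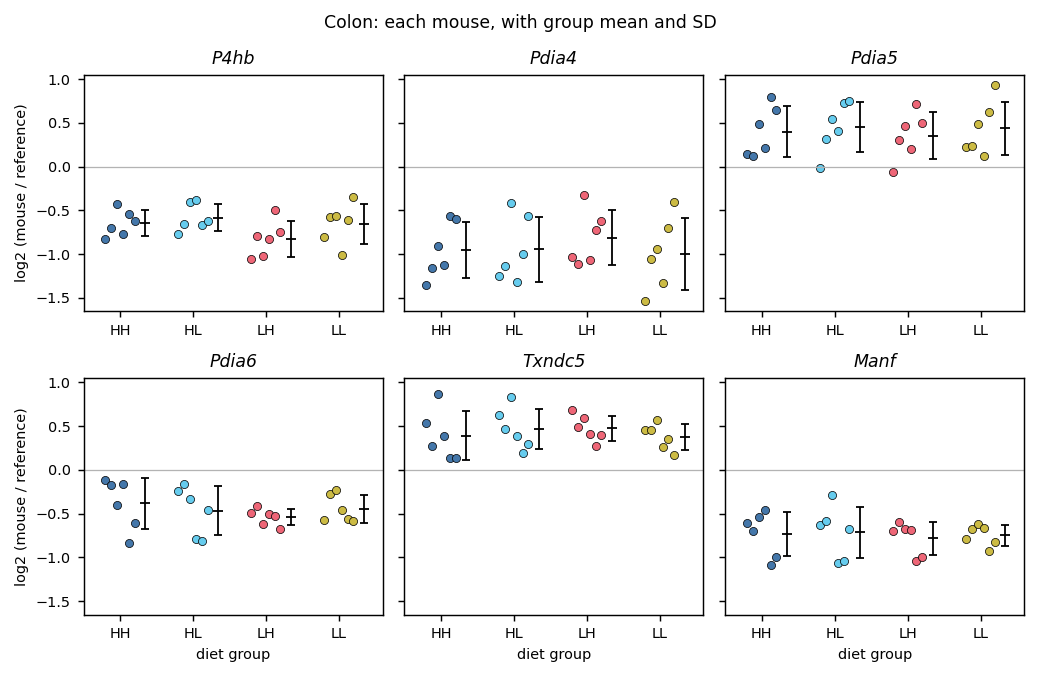
Log2 ratio of mouse over reference for the brightest probe of each of the 6 genes in the colon, by diet group (6 mice a group; points are mice, bars are the group mean with its SD). The 4 diet groups overlap for every gene, and the range over all mice is widest for *Pdia4*, from -1.53 to -0.32.

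The liver difference between LH and HH exceeded that of the colon by 0.49 (*Txndc5*) to 0.89 (*Pdia4*), with a median of 0.61. As the liver contrast chose the genes, this carries no test. LL minus HL, which it did not use, differed between the tissues by -0.21 to 0.23 over the 6 genes with none called or at an unadjusted p under 0.05, against 0% and 1.41% of all probes. Tissue, slide and scan day cannot be told apart, because every slide held a single tissue.

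Between the tissues themselves, *Pdia4*, *Manf* and *P4hb* were higher in liver and the other genes were close. Over all mice the difference, liver minus colon, was 1.51 ± 0.13 for *Pdia4* (2.85-fold, adjusted p = 7.37e-14 in limma), 1.2 ± 0.08 for *Manf* (2.3-fold, adjusted p = 2.19e-17) and 1.03 ± 0.09 for *P4hb* (2.04-fold, adjusted p = 8.24e-15). These 3 of the 6 genes were called, where 30.4% of all probes were. They were also called within the HL mice (1.63, 1.1 and 0.94), where 30.9% of all probes were, and within the LL mice (1.42, 1.33 and 0.90), where 30.7% were, so the call did not need the mice that chose the genes.

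*Pdia5* differed by 0.10 ± 0.09 (95% interval -0.07 to 0.28, adjusted p = 0.301). *Txndc5* was lower in liver by both probes, -0.17 ± 0.07 and -0.50, under the 1.5-fold threshold. *Pdia6* depended on the probe: the brightest gave 0.19 ± 0.08 and probe A_51_P297968 gave 0.81 and was called. For *Pdia5* and for the brightest probe of *Pdia6* the direction turned where arrays were only centred on their median (-0.45 and -0.15), and for *Pdia6* also with no offset in the background correction (-0.10). For none of the 6 genes did the liver and colon mice separate fully, as they did for 23.2% of all probes. The highest colon value of *Pdia4* was -0.32 and the lowest liver value -0.41.

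The ER chaperones shared the direction, with 11 of 11 higher in liver and 7 called (median 0.88). The UPR list had 5 of 12 called, all higher in liver. The other isomerases had 3 called higher and 4 called lower of 17 (median 0.06), and the thiol oxidation list 5 and 4 of 11. Of all 41171 probes 52.2% were higher in liver and 30.4% (12497) were called, 6023 of these higher in liver. The tissues matched their markers: the summed signal of 7 colon epithelium markers was 297000 to 535000 in the colons and 4960 to 6810 in the livers.

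Within the colon the genes split into trios. With group means removed, over 24 mice, *Pdia5* went with *P4hb* (r 0.68) and *Pdia4* (r 0.78), *Manf* went with *Pdia6* (r 0.79) and *Txndc5* (r 0.73), and all 9 correlations between the trios were negative, down to -0.60 for *Pdia5* with *Pdia6*. Of the 15 pairs 5 had an adjusted permutation p under 0.05 by r and 7 by rho. These relations went mostly with the slide. Slides took 87.5% of the within-group spread of *Pdia5*, 80.3% for *Txndc5*, 79.2% for *Pdia4*, 62.9% for *Manf*, 50.4% for *Pdia6* and 36.3% for *P4hb*, where they hold 25% of the degrees of freedom.

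With slide means removed as well, 5 of the 9 correlations between the trios were negative and their median went from -0.27 to -0.03. *Pdia5* with *Pdia4* went to 0.08 and *Pdia5* with *P4hb* to 0.54 (permutation within slides, adjusted p = 0.072). *Pdia6* with *Manf* was the only pair that stayed past the threshold (r 0.71, adjusted p = 0.014, rho 0.63, adjusted p = 0.042, and r 0.53 without the 2 farthest mice, 24 mice in all). In the liver the median correlation of the pairs over all 23 mice was 0.41 with slide means removed.

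**Figure D5:**
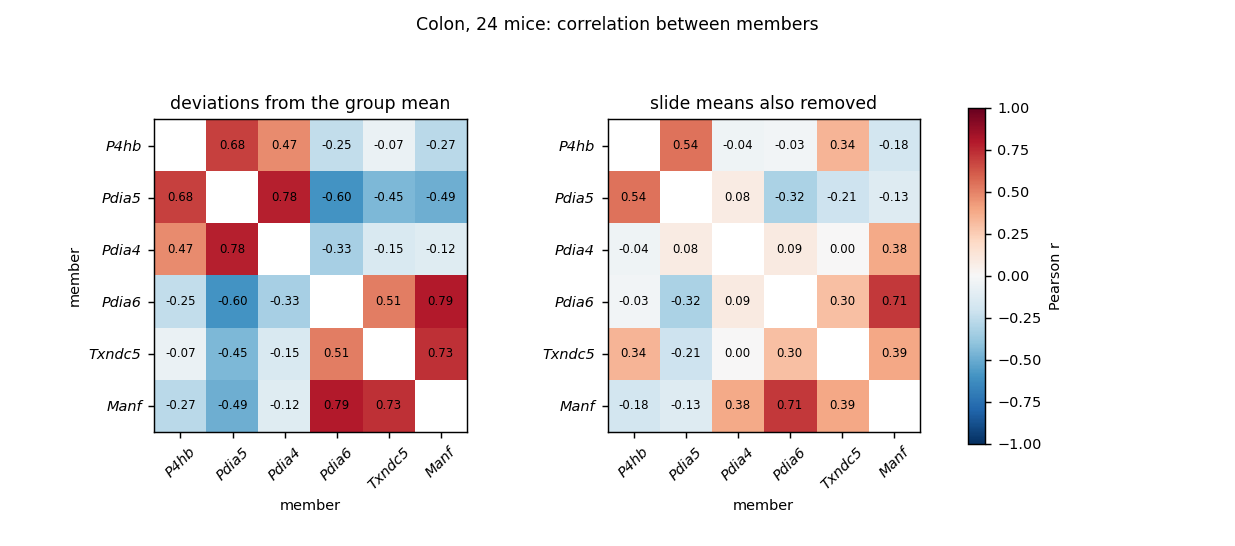
Pearson r between the 6 genes over the 24 colon mice, from deviations from the group mean (left panel) and with the slide means also removed (right panel). Red is positive and blue negative; the negative values between the trios on the left, down to -0.60, shrink on the right to -0.32 at most, while *Pdia6* with *Manf* keeps 0.71.

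Markers of colon cell types were set against the genes in the same way. The mean of the colon epithelium markers went with *P4hb* (r 0.72, adjusted permutation p = 0.017, rho 0.66 with 0.021, r 0.57 without the 2 farthest mice) and with *Pdia5* (r 0.68, adjusted permutation p = 0.017, rho 0.67 with 0.021). *Pdia4* passed by rho (0.62, adjusted permutation p = 0.03, r 0.56 with 0.094). With slide means removed r was 0.59 for *P4hb* (adjusted p = 0.085, rho 0.61 with 0.048), 0.31 for *Pdia5* (adjusted p = 0.53) and -0.06 for *Pdia4* (adjusted p = 0.84). Goblet cell markers, whose cells secrete mucin, went with *Pdia5* at r 0.31 before and 0.73 after the slide means were removed (permutation within slides, adjusted p = 0.0069, rho 0.70 with 0.019, r 0.68 without the 2 farthest mice). Smooth muscle markers went with *P4hb* at 0.49 and 0.76 (adjusted p = 0.032, rho 0.68 with 0.06). Before the slide means were removed, r for this pair was 0.26 without the 2 farthest mice, LL 4 and HL 4. The LL 4 colon also had a Kupffer cell marker sum of 49100, against 2280 to 3910 in the colons of the other diet groups. Values were adjusted over 60 relations of both tissues before and over 30 colon relations after the slide means were removed.

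The genes most like the mean of the 6 in the colon were *Tafa5* (r 0.86), *Xbp1* (0.85), *Cog5* (0.85), *Ctnnd1* (0.84) and *Pcyox1l* (0.84). There, 0.231% of 25514 probes had r above 0.8, and the 6 genes themselves had only 0.24 to 0.68.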

How the data were processed

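The members and gene lists were chosen with earlier results of these data known. The authors scanned 48 two-colour Agilent arrays with Feature Extraction (10.10.1.1 per the file headers), and normalised them by global loess in limma under R 3.0.2. The deposited scanner intensity values were used here: median spot intensity of Cy3 (mouse) and Cy5 (reference), with no dye swap. The authors' deposited table of log2 ratios (reference over mouse) served as an alternative. The reference is pooled intestine and liver RNA by the methods, but whole pregnant mouse and foetus by the series' text.

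Local backgrounds brighter than their spot were replaced by the array median, normexp used an offset of 50, and loess was fitted within arrays (limma 3.58.1, R 4.3.3). Control spots (43379 of 45018 spots were not controls) and flagged spots (102 to 261 an array) were left out, and spots of a probe were averaged. Of 41174 probes 27050 were named, for 18434 genes, through RefSeq accessions. All 9 probes were well above background and none saturated on any array. With several probes, a gene's value is that of the brightest. Groups were fitted per tissue with lmFit and eBayes, or over 8 groups between tissues; calls needed over 1.5-fold and a false discovery rate under 0.05 (Benjamini-Hochberg). Correlations used 100000 two-sided permutations. List genes are named where called, otherwise the 3 largest liver differences between HH and LH. The number of arrays limits the precision. Fits were tested on simulated data. Alternatives covered background, normalisation, slide, array position, weights, sample sets and leaving out each mouse.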

Additional observations from a re-analysis of the deposited data

Results flagged for a closer look

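In 72 groups of 5 or 6 mice (9 probes, 8 groups), 4 held a mouse far from the others, where chance gives 1 in 20, or 3.6. *Pdia5* read 0.62 in the HH liver of the animal with 2 arrays, against -0.01 to 0.15 in the other HH livers. Probe A_51_P297968 of *Pdia6* read -1.31 in the HH 5 colon, against -1.01 to -0.85, and -1.43 in the LH 3 colon, against -1.16 to -1.07. The dimmer *Txndc5* probe A_52_P535561 read 1.28 in the HH 3 colon, against 0.49 to 0.76.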

How the results depend on the processing

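Of 2098 values recomputed under the alternatives, 2084 kept their direction and their side of the threshold, or stayed within the spread between mice. The median liver difference between LH and HH ran from 0.49 to 0.69, and that of LL minus HL from -0.12 to 0.11. In liver LH minus HH the number of called probes of the array, 0 in the main fit used here, was 1 with array position as a block, 3 with array weights, 6 with the 2 arrays of an HH animal as 2 mice, 17 with only the 2 groups compared and 106 with all 8 groups fitted together, and 0 to 2 when a mouse was left out (2 without HL 4, 1 without LL 4). The fit on only 2 groups and that on all 8 each called 1 of the 9 probes. With median centring in place of loess, the median colon difference in LH minus HL was -0.21, *Txndc5* in liver minus colon was -0.70 and past the call thresholds, and *Pdia5* (-0.45) and *Pdia6* (-0.15) reversed there; *Pdia6* also reversed with no offset (-0.10). The cause was not tested. Chosen after seeing the data, leaving out the HL livers took the median correlation of the pairs from 0.49 to 0, and removing slide means took it to 0.41 in the liver and from -0.12 to 0.08 in the colon. Replicate numbers were given in accession order and name the mice, but mice of the same number shared a slide within a tissue; the fit with slide as a block, which is also the replicate block, changed no call (median liver LH minus HH 0.54, LL minus HL -0.02). The scan date was not run as a block, since it coincides with the tissue. *Txndc5* and *Pdia6* have probes that disagree in size.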
